A study of Bos taurus with 36 samples.

Results

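The cytochrome P450 genes of cattle were followed in 3 fetal organs and in maternal blood at Day 42 of gestation. The members were all rows of the deposited gene table whose identifier belongs to a protein-coding gene with a P450 symbol in RefSeq, apart from CYP11A1 and CYP17A1, which were set aside as genes of steroid synthesis. This rule gave 52 genes among 35092 rows and used no measured value.

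Cytochrome P450 enzymes are haem proteins that add an oxygen atom to their substrate, with electrons handed on by P450 oxidoreductase, cytochrome b5 or, in mitochondria, ferredoxin. Some have a single physiological task, such as the demethylation of lanosterol, the 12-alpha-hydroxylation of bile acid precursors or the breakdown of retinoic acid. Others, above all in families 1, 2 and 3, act on many foreign compounds, and the adult liver is their best known site.

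The RNA came from 10 male fetuses, numbered here from 1, the lightest, to 10, the heaviest. All were produced by transfer of a Day 7 embryo, either on Day 7 of the recipient's cycle (ET_D7, fetuses 1 to 5, 1.253 to 1.37 g) or on Day 9 (ET_D9, fetuses 6 to 10, 1.396 to 1.69 g). As no weight is shared by these groups, weight and transfer group cannot be told apart. Libraries were available for 9 hearts (not fetus 7), 9 gonads (not fetus 2), 8 livers (not fetuses 6 and 7) and the blood of 10 dams. Blood was prepared with another library kit than the organs, so its levels are given beside theirs without a test.

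Library totals ran from 18231089 to 34454772 counts in liver, 20930367 to 35857434 in heart, 22762065 to 39649051 in gonads and 26602415 to 40812354 in blood. Certain libraries resembled each other more than separate animals would. The livers of fetuses 1 and 2 deviated from a constant ratio by 0.517 counting errors over 11196 genes, and the gonads of fetuses 6 and 8 by 0.0238 over 13187 genes, against 1.93 or more in every other pair within a tissue. For the median gene each of these pairs differed by less than the sampling noise, and it was averaged and counted as 1 sample. Single members of the liver pair nevertheless differed between fetuses 1 and 2, with 0 and 42 counts of CYP19A1, 38 and 0 of CYP27C1, 396 and 618 of CYP26B1, 33 and 59 of CYP2B6 and 6 and 24 of CYP2F1. Averaging left 7 liver, 9 heart, 8 gonad and 10 blood replicates. In addition, over genes with a mean of at least 50 counts, certain libraries matched a weighted sum of others within counting error for the median gene. These were the liver of fetus 9 for fetuses 8 and 10 (deviation 0.514), the heart of fetus 1 for fetuses 2 to 5 (0.904) and the gonads of fetus 6 for fetuses 7, 9 and 10 (0.450). Single members again differed. CYP2C282 had 42 counts in the liver of fetus 9 and 0 in those of fetuses 8 and 10. CYP2C281 had 18 counts in the heart of fetus 1 and 0 in those of fetuses 2 to 5. Calls printed for a gene that change without these weighted-sum libraries are given both ways.

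Marker genes set the labels in context. Hepatocyte markers summed to 40300 to 69700 CPM (counts scaled to a common library size) in liver, with 10 of 10 higher there than in both other organs, and cardiomyocyte markers to 40400 to 59100 CPM in heart, with 9 of 9 higher there. The libraries labelled gonads had 1 of 9 Sertoli cell markers, 0 of 7 germ cell markers and 0 of 8 steroidogenic markers higher than in both other organs, by edgeR's quasi-likelihood test. In these libraries GATA4, the lowest of the Sertoli cell markers, was at 0.0523 CPM and the germ cell marker DDX4 at 0.116 CPM. Other such markers were present, with PTGDS at 30.1, SOX8 at 6.45 and the germ cell marker DND1 at 3.29 CPM. At least 1 CPM in every such library was reached by 3 of 9 Sertoli cell, 1 of 7 germ cell and 8 of 11 kidney or mesonephros markers. Of the latter, 6 of 11 were higher than in both other organs, with PAX2 at 114 CPM and SIX2 at 39.4 CPM. Another 3 of these 11, LRP2, CUBN and CDH16, were higher in liver. The whole list summed to 167 to 323 CPM in liver and 255 to 292 CPM in the libraries labelled gonads. The name of the latter is therefore kept only as the label, and the source of their RNA was not tested.

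Some P450 genes were higher in liver and others in the libraries labelled gonads, and none was called higher in heart than in both other organs. Of the 50 members that had a count in an organ, 17 were higher in liver than in both other organs, against 22.5% of all 25054 genes tested, by edgeR's quasi-likelihood test at an adjusted p under 0.05. In the gonads 10 were higher than in both others, against 14.6% of all genes. In heart the number was 0, against 10.6%, also by DESeq2, while 5 members were lower in liver than in heart and 2 were lower in gonads than in heart at an adjusted p under 0.05. The members' share of 34% in liver was above the background and that in heart was below it, while the 20% in gonads was near it. With the fetus as a block, 14 members were higher in liver and 7 in gonads. With DESeq2 size factors the numbers were 18 and 8. In such bulk samples, fewer cells of a type and less RNA per cell cannot be told apart.

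By pairwise calls, the members leaned to liver and to gonads over heart, and less to liver over gonads. Between liver and heart, 22 members were higher in liver (44%, against 30.3% of all genes) and 5 in heart (10%, against 27%). The members' median log2 fold change was 0.92, compared with 0.00 over all genes. Between liver and gonads, 19 were higher in liver (38%, against 32.6%) and 12 in gonads (24%, against 30%), with a median of 1.40 against 0.00. Both of these shares were near those of all genes, and with the fetus as a block the numbers were 16 and 13. Between gonads and heart, 17 were higher in gonads (34%, against 22.9%) and 2 in heart (4%, against 22.7%), with a median of 0.70 against 0.09. With genes at 0 in an organ placed at the bound that 3 counts allow over that organ, the last median was 0.63 and the others did not move.

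**Figure D1:**
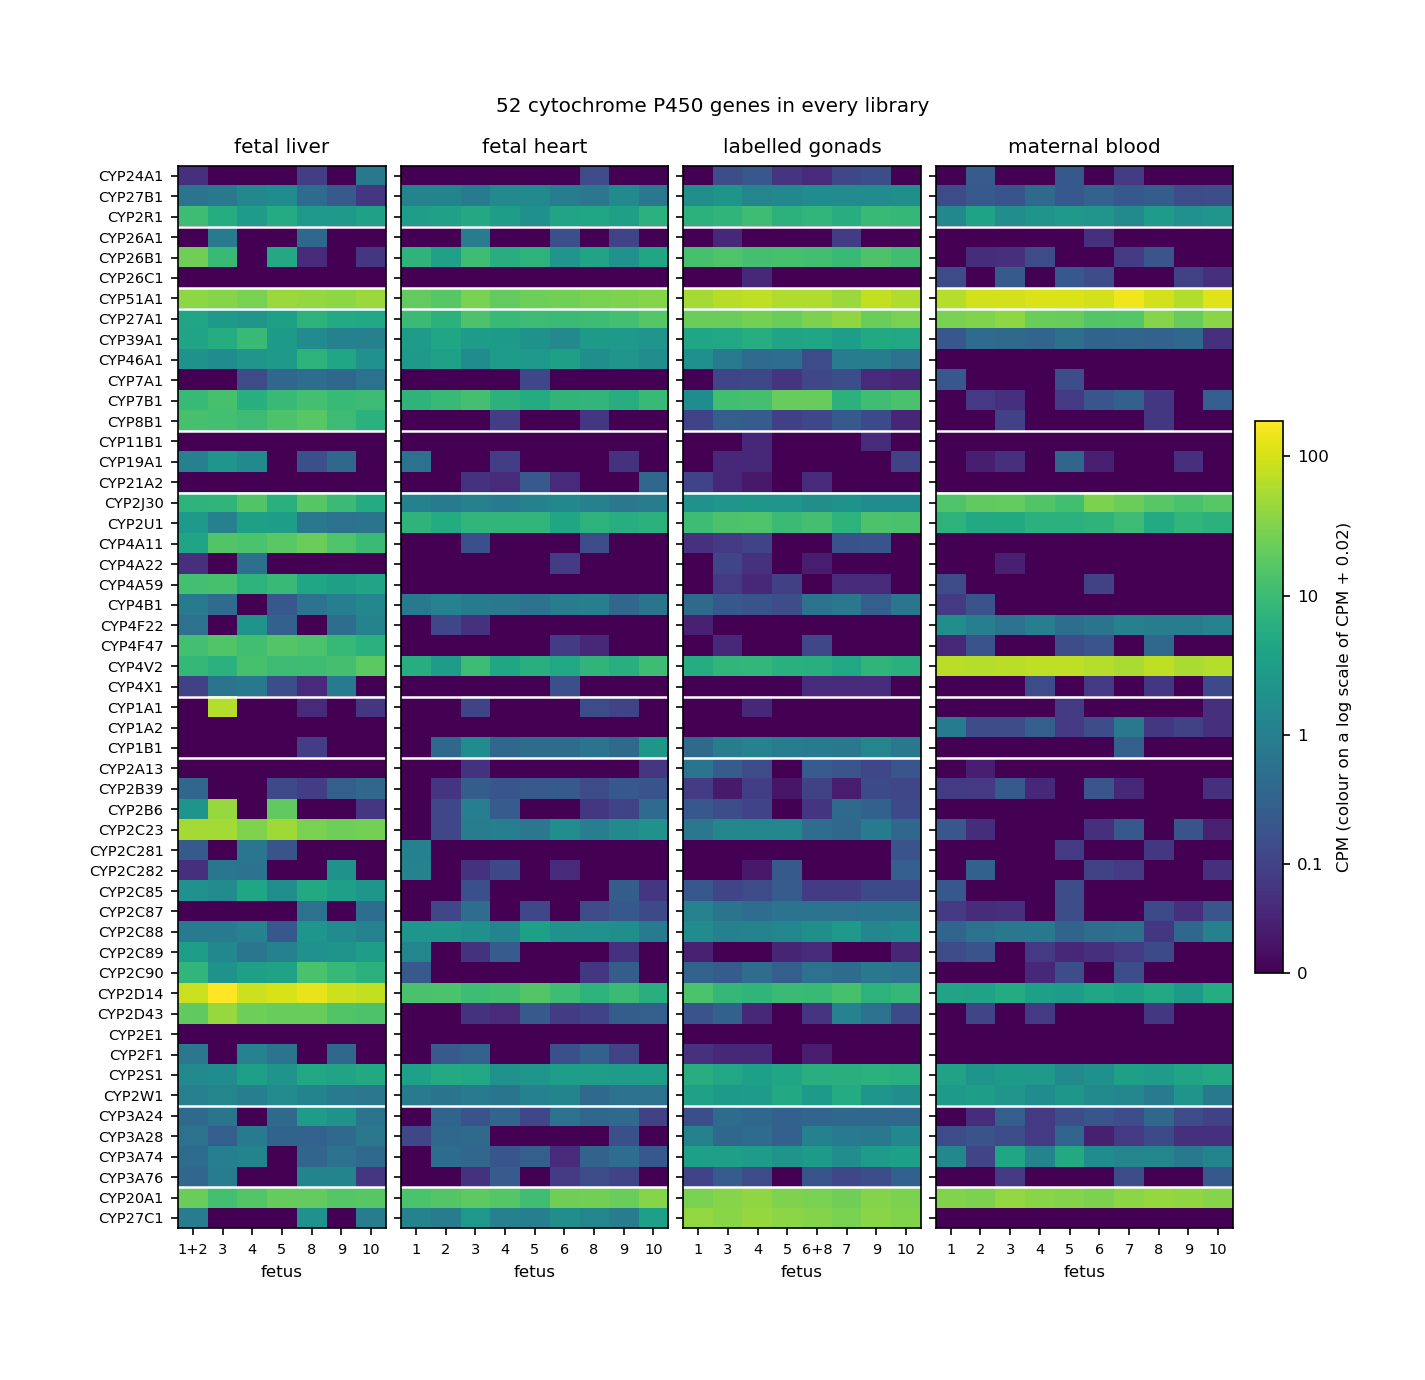
CPM of the 52 P450 genes (rows, grouped by role from vitamin D hydroxylases at the top to other families at the bottom) in every replicate (columns, by fetus) of fetal liver, fetal heart, libraries labelled gonads and maternal blood. Colour is on a log scale of CPM + 0.02. CYP2D14 is bright in all 7 livers, CYP27C1 in all 8 gonad columns, and CYP2E1 is at 0 throughout.

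Taking a gene as on when every library of a tissue had at least 1 CPM, 19 P450 genes were on in liver, 17 in gonads, 12 in heart and 9 in blood. In liver alone among the organs, 8 were on, namely CYP8B1, CYP4A11, CYP4A59, CYP4F47, CYP2C23, CYP2C85, CYP2C90 and CYP2D43. In all 3 organs 9 were on, and 7 of these were also on in blood. A further 5 were on only in the gonads among the organs (CYP27B1, CYP2C88, CYP2W1, CYP3A74 and CYP27C1) and 0 only in heart. On in no tissue were 26, and among those CYP11B1 and CYP2E1 stayed at or under 0.1 CPM everywhere. Shares over all genes are not given for these counts, so they describe the members only and do not set them apart from other genes.

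The family 2 enzymes that act on foreign compounds made up 17 members, of which 7 were higher in liver and 3 in gonads, beside 22.5% and 14.6% of all genes. CYP2D14 belongs to the subfamily known for the oxidation of many drugs and plant alkaloids. Its level in liver had a lowest value of 76.9, a median of 90.4 and a highest value of 180 CPM, against 6.31 to 15.6 CPM in heart and 7.26 to 13.8 CPM in gonads. It was on in every tissue, blood included (2.85 to 5.68 CPM), but no liver overlapped any other organ. The log2 fold change was 3.29 ± 0.203 (SE) over heart and 3.47 ± 0.213 over gonads, with adjusted p = 1.68e-13 and 1.60e-13.

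Its neighbour CYP2D43 was far more restricted. It ran from 13.9 to 44.4 CPM in liver (median 22.0), and did not exceed 0.294 CPM in heart or 1.12 CPM in gonads. It exceeded gonads by a log2 fold change of 6.23 ± 0.730 (SE), with adjusted p = 3.80e-08. As the sequences of these neighbours are alike, reads that fit both could have been shared between them in ways that the counting options would decide, and these are not given in the sources used here.

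CYP2C23 belongs to the subfamily that turns arachidonic acid into epoxides and clears many drugs. It was at 23.7 to 52.7 CPM in liver (median 31.2), 0 to 1.96 CPM in heart (median 0.964) and 0.399 to 1.3 CPM in gonads (median 0.771). All livers lay above all hearts and gonads, with a log2 fold change of 5.21 ± 0.482 (SE) over heart and an adjusted p = 5.46e-10.

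The other genes of that subfamily stand in 1 row on the chromosome in the RefSeq assembly ARS-UCD2.0, in the order CYP2C90, CYP2C87, CYP2C85, CYP2C88, CYP2C89, CYP2C281 and CYP2C282, with no other coding gene between them. Within this row, 3 genes were higher in liver and their direct neighbours were not. CYP2C90 was at 2.03 to 13.0 CPM in liver (median 6.90), at most 0.277 CPM in heart and 0.263 to 0.744 CPM in gonads. CYP2C85 was at 1.57 to 5.08 CPM in liver (median 2.45), at most 0.277 CPM in heart and 0.261 CPM in gonads. CYP2C89 was at 0.696 to 3.23 CPM in liver (median 1.96), and its highest heart, at 1.29 CPM, overlapped the livers.

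Between these, CYP2C87 and CYP2C88 went another way. CYP2C87 had at most 0.583 CPM in liver and 0.499 to 1.12 CPM in gonads, above every heart (adjusted p = 0.0450). That contrast had an adjusted p of 0.0553 with the fetus as a block and 0.0685 without the weighted-sum libraries, while the contrast with liver passed with the block (0.0174) and with all libraries as deposited (0.0430). CYP2C88 was at 0.225 to 2.33 CPM in liver (median 1.10), 0.850 to 3.52 CPM in heart (median 1.96) and 1.07 to 2.69 CPM in gonads (median 1.48), and differed between no pair of organs (adjusted p = 0.0667, 0.297 and 0.436). With all libraries as deposited its contrast between liver and heart passed (adjusted p = 0.0371). CYP2C281 and CYP2C282, at the end of the row, did not exceed 2.08 CPM in any library. Reads common to these near copies are subject to the same uncertainty as for CYP2D14 and CYP2D43.

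**Figure D2:**
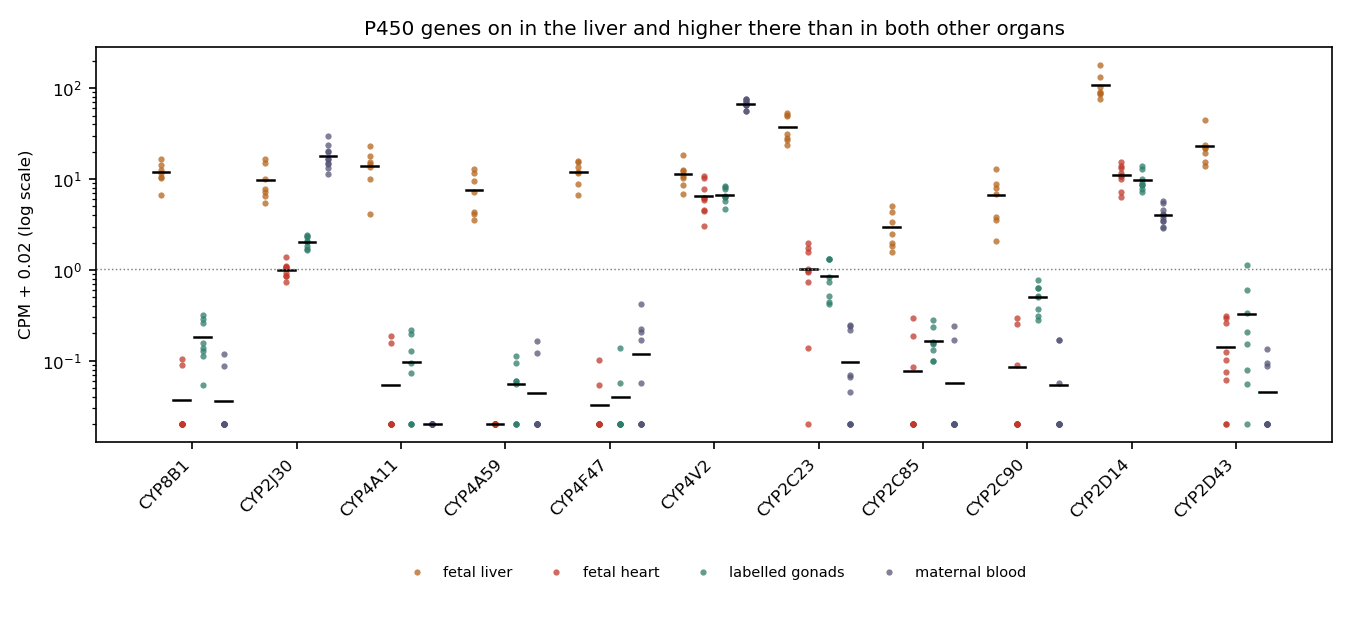
CPM + 0.02 on a log axis for the 11 P450 genes that were on in liver and higher there than in both other organs. Points are replicates (7 liver, 9 heart, 8 labelled gonads, 10 blood), bars are means, and the dotted line marks 1 CPM. The liver points of 10 genes lie above every heart and gonad point. CYP4V2 is the exception. Blood came from another library kit.

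A further 3 family 2 genes were higher in the gonads. CYP2W1, an enzyme known mainly from outside the adult liver, was at 1.75 to 5.36 CPM there (median 2.94), 0.710 to 1.57 CPM in liver (median 1.02), 0.448 to 1.22 CPM in heart (median 0.667) and 0.760 to 3.19 CPM in blood (median 1.92). The gonads lay above every liver and heart, with a log2 fold change of 2.13 ± 0.286 (SE) over heart (adjusted p = 7.23e-07). CYP2S1, another enzyme of tissues outside the liver, was at 3.44 to 6.62 CPM in gonads (median 5.92), 1.46 to 4.97 in liver (median 3.48), 2.08 to 5.28 in heart (median 3.2) and 1.54 to 4.79 in blood (median 2.96). Its groups overlapped, and the difference from heart was lost with the fetus as a block (adjusted p = 0.105), without the weighted-sum libraries (0.0891), and without fetus 1 or any of fetuses 4 to 10, with an adjusted p up to 0.111. The contrast with liver did not hold with DESeq2 size factors. CYP2A13 was at a mean of 0.227 ± 0.187 CPM (SD) in gonads with 0 counts in liver, which puts it at least 9.77-fold higher in gonads when 3 counts are allowed over the livers. With the block its difference from heart had an adjusted p = 0.0630.

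Apart from CYP2B6, described below, the remaining family 2 genes were low in every library. CYP2E1, which oxidises ethanol and other small molecules and is abundant in adult liver, had 0 counts in all libraries, which allows up to 0.0210 CPM over the livers. CYP2F1 and CYP2B39 did not exceed 1.11 CPM in any library.

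Enzymes of fatty acids and eicosanoids made up 10 members, and 7 of them were higher in liver, beside 22.5% of all genes. CYP4A11, a fatty acid omega-hydroxylase, was at 4.10 to 23.1 CPM in liver (median 14.6), at most 0.165 CPM in heart and 0.196 CPM in gonads, and had 0 counts in blood. CYP4A59, of the same subfamily, was at 3.51 to 12.8 CPM in liver (median 7.17) and at most 0.0920 CPM in gonads. With 0 counts in the 9 hearts, it was at least 545-fold higher in liver when 3 counts are allowed over the hearts. No liver overlapped another organ for either gene.

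CYP4A22, the next gene in the same row, reached only 0.557 CPM in liver, and CYP4B1 after it ran from 0 to 1.35 CPM in liver and 0.387 to 1.13 CPM in heart. CYP4X1, on the other side with 1 other coding gene between it and CYP4A11, was called higher in liver at no more than 0.791 CPM. Among these 5 genes, then, liver levels over 1 CPM in every library were found only in the adjacent CYP4A11 and CYP4A59. The family 4A copies could also share reads.

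CYP4F47, of the subfamily that inactivates leukotrienes, was at 6.71 to 15.7 CPM in liver (median 11.8), at most 0.0811 CPM in heart, 0.118 CPM in gonads and 0.402 CPM in blood. Relative to gonads, the log2 fold change was 9.02 ± 0.761 (SE), with adjusted p = 8.98e-11. CYP4F22, known for an ultra-long-chain fatty acid hydroxylation in skin, was also higher in liver, but at 0 to 2.23 CPM with zero counts in some livers, and had 0.525 to 1.75 CPM in blood.

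CYP2J30, of an arachidonic acid epoxygenase subfamily, was at 5.42 to 16.5 CPM in liver (median 7.79), 0.719 to 1.38 CPM in heart (median 1.03), 1.65 to 2.42 CPM in gonads (median 2.02) and 11.3 to 29.4 CPM in blood (median 16.7). No liver overlapped another organ, and the gonads also lay above every heart (log2 fold change 1.03 ± 0.234, adjusted p = 0.000639). CYP4V2, a fatty acid hydroxylase of the retina and other tissues, differed by much less, at 6.74 to 18.2 CPM in liver (median 10.7), 3.02 to 10.7 in heart (median 6.20) and 4.61 to 8.30 in gonads (median 6.42). Its log2 fold change was 0.79 ± 0.241 over heart and 0.76 ± 0.248 over gonads (adjusted p = 0.00680 and 0.0101), and its blood level was 56.0 to 76.0 CPM.

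CYP2U1, a fatty acid hydroxylase of brain and thymus, ran the other way. It was at 7.18 to 14.8 CPM in gonads (median 12.7), 4.13 to 7.96 in heart (median 7.16), 4.88 to 10.1 in blood (median 6.80) and 0.593 to 3.48 in liver (median 1.05). All livers were below all hearts and gonads, and gonads exceeded heart by 0.83 ± 0.302 on the log2 scale (adjusted p = 0.0259, and 0.0538 without fetus 6).

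Sterol and bile acid enzymes were on in all organs for the most part, and one was a liver gene. CYP8B1, the sterol 12-alpha-hydroxylase that sets the proportion of cholic acid, was at 6.71 to 16.7 CPM in liver (median 11.7), at most 0.0833 CPM in heart and 0.0334 to 0.300 CPM in gonads. The log2 fold change was 9.04 ± 0.613 (SE) over heart and 6.16 ± 0.519 over gonads (adjusted p = 1.19e-12 and 8.99e-11). CYP7A1, the rate-limiting enzyme of bile acid synthesis, had no more than 0.581 CPM in any liver. Its 43 counts in liver against 2 in heart gave a ratio of 32.1 with a 95% counting interval of 8.89 to 265, and it differed from heart (adjusted p = 0.00179) and not from gonads (0.121).

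CYP27A1, the mitochondrial sterol 27-hydroxylase of the acidic bile acid pathway, was lowest in liver. It was at 2.30 to 7.12 CPM there (median 4.24), 6.99 to 16.5 in heart (median 10.1), 22.4 to 39.6 in gonads (median 25.1) and 15.8 to 38.9 in blood (median 26.3). Gonads were above every liver and every heart, with a log2 fold change of 1.29 ± 0.198 over heart. For liver the log2 fold change was -2.67 ± 0.228 relative to gonads and -1.38 ± 0.215 relative to heart (adjusted p = 1.11e-10 and 4.04e-06).

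CYP7B1, an oxysterol 7-alpha-hydroxylase, was at 6.13 to 12.6 CPM in liver (median 9.44), 5.31 to 11.6 in heart (median 7.74) and 1.68 to 21.7 in gonads (median 11.9), with at most 0.301 CPM in blood. CYP39A1, which hydroxylates 24-hydroxycholesterol, was at 1.03 to 9.12 CPM in liver (median 2.86), 1.46 to 4.27 in heart (median 2.82) and 3.27 to 5.77 in gonads (median 4.49). Neither differed between any pair of organs, with adjusted p from 0.0796 to 0.454. Between gonads and heart, however, CYP39A1 passed with the fetus as a block (adjusted p = 0.0369) and CYP7B1 with all libraries as deposited (0.0393). CYP46A1, the cholesterol 24-hydroxylase known from brain, was at 1.69 to 7.12 CPM in liver (median 2.30) and 1.68 to 3.67 in heart (median 2.50), and was lower in gonads at 0.138 to 1.92 CPM (median 0.687). It had 0 counts in blood.

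CYP51A1, the lanosterol 14-alpha-demethylase of cholesterol synthesis, was on in every tissue. It was at 45 to 79.3 CPM in gonads (median 60.9), 29.0 to 46.5 in liver (median 38.4), 17.1 to 34.3 in heart (median 25.9) and 64.1 to 147 in blood (median 101). All gonads were above all hearts, liver overlapped both, and all 3 organ differences passed the test, with log2 fold changes of 1.29 ± 0.137 for gonads over heart, 0.61 ± 0.141 for liver over heart and -0.68 ± 0.146 for liver relative to gonads.

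Of the vitamin D hydroxylases, CYP2R1, the 25-hydroxylase, was on in all 4 tissues. It was at 5.82 to 10.5 CPM in gonads (median 7.83), 2.75 to 10.5 in liver (median 3.68), 1.91 to 6.67 in heart (median 3.62) and 1.39 to 3.86 in blood (median 2.24). The call of a higher level in gonads rested on the contrast with liver (adjusted p = 0.0293), which was lost with the fetus as a block (adjusted p = 0.0620), without the weighted-sum libraries (0.0871), with all libraries as deposited (0.111), with DESeq2 or its size factors, and without fetus 3, 4, 8, 9 or 10. In all it held in 7 of 17 recomputations, with adjusted p from 0.0222 to 0.111. CYP27B1, which makes the active hormone, was on in gonads at 1.25 to 2.17 CPM (median 1.64), with 0.0645 to 1.64 in liver (median 0.634), 0.719 to 1.49 in heart (median 1.17) and 0.146 to 0.444 in blood (median 0.225). It exceeded liver (adjusted p = 0.0188, and 0.0588 without the weighted-sum libraries) but not heart (0.220). CYP24A1, which inactivates vitamin D, did not exceed 0.774 CPM.

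The retinoic acid hydroxylases were represented by CYP26B1, on in heart at 1.99 to 10.7 CPM (median 4.41) and in gonads at 9.43 to 14.5 CPM (median 12.3). Gonads and heart did not pass the test (log2 fold change 1.22 ± 0.790, adjusted p = 0.215), and the livers, described below with other genes of the same behaviour, ran from 0 to 24.7 CPM (median 0.0645). CYP26A1 and CYP26C1, adjacent to each other, did not exceed 0.936 and 0.243 CPM.

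CYP27C1, which desaturates retinol, had the sharpest gonad pattern among the members. It was at 29.2 to 42.1 CPM in gonads (median 35.9), 0.885 to 3.37 in heart (median 1.17) and 0 to 2.0 in liver (median 0), with 0 counts in blood. The log2 fold change was 4.51 ± 0.596 (SE) over heart (adjusted p = 5.38e-07), and all 17 recomputations of this contrast passed the threshold. CYP20A1, an enzyme without a well known substrate, was on in all tissues, at 24.9 to 39.1 CPM in gonads (median 30.1), 10.8 to 34.1 in heart (median 18.8), 11.6 to 22.4 in liver (median 17.0) and 30.0 to 42.0 in blood (median 35.4), with 0.62 ± 0.179 on the log2 scale between gonads and heart (adjusted p = 0.00561).

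**Figure D3:**
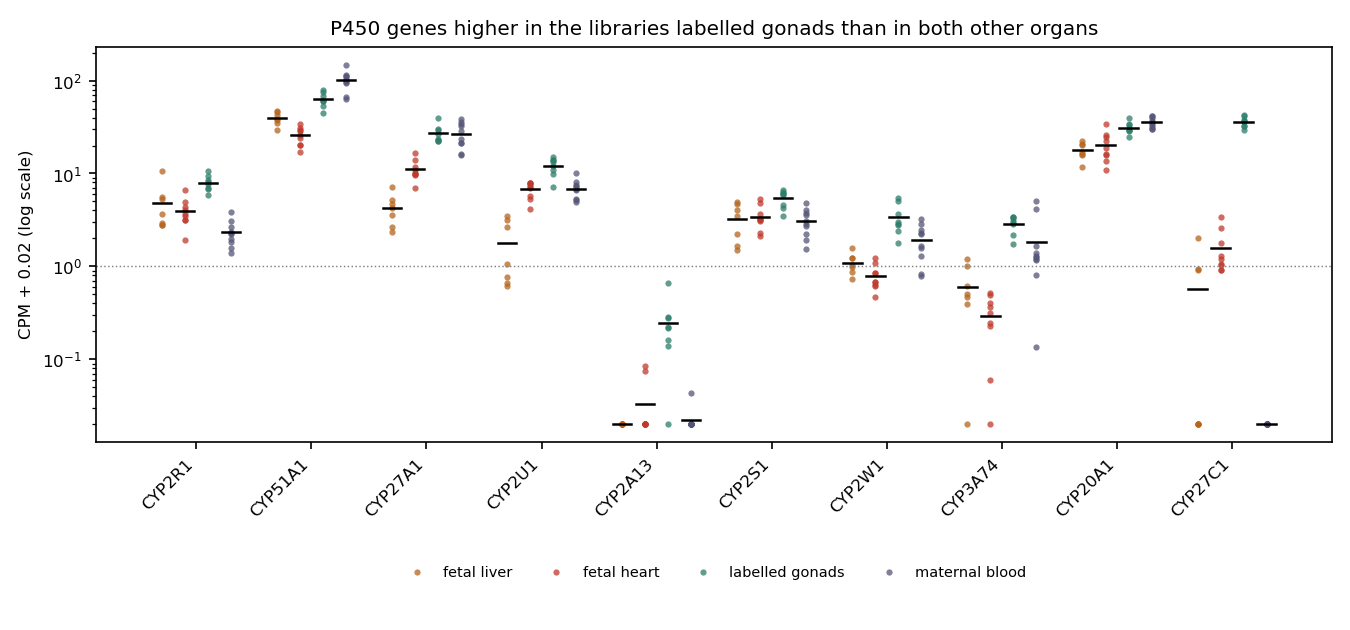
CPM + 0.02 on a log axis for the 10 P450 genes that were higher in the libraries labelled gonads than in both other organs. Points are replicates (7 liver, 9 heart, 8 labelled gonads, 10 blood), bars are means, and the dotted line marks 1 CPM. The gonad points of CYP27A1, CYP2W1, CYP3A74 and CYP27C1 lie above every liver and heart point, and the other 6 genes overlap.

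Family 3, which in adults metabolises a large part of all drugs, was low. CYP3A74 was higher in gonads, at 1.72 to 3.39 CPM (median 3.02), than in liver at 0 to 1.18 CPM (median 0.488) and in heart at 0 to 0.498 CPM (median 0.298), with no overlap. Its level in blood was 0.116 to 5.06 CPM (median 1.26). CYP3A24, CYP3A28 and CYP3A76, which stand in the same row, were on in no organ, and their highest liver values were 3.0, 0.835 and 1.21 CPM. CYP3A24 was higher in liver than in heart (adjusted p = 0.0188) and fell just short against gonads (0.0521), a contrast that passed with DESeq2 size factors and with all libraries as deposited (0.0492). The difference from heart was lost with the fetus as a block (adjusted p = 0.0558) and without the weighted-sum libraries (0.0684). The 4 genes are near copies, so reads may have been shared among them.

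The 3 steroid hormone enzymes among the members, with CYP11A1 and CYP17A1 set aside, were low or absent in the organs. Of the 8 steroidogenic markers, 3 were higher in liver, with HSD3B1 at 64.1 ± 25.8 CPM (SD) there, and 3 in heart. CYP19A1, the aromatase that makes oestrogens, was called higher in liver at 0 to 2.32 CPM (median 0.395), and this was lost with the fetus as a block (adjusted p = 0.106) and without fetus 2, 3 or 4. CYP21A2 and CYP11B1, enzymes of the adrenal cortex, had 0 counts in liver and at most 0.392 and 0.0392 CPM in the other organs.

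CYP1A1, CYP2B6 and CYP26B1 were present in some livers and absent from others. CYP1A1, which oxidises polycyclic aromatic compounds, was at 66.2 CPM in the liver of fetus 3, from 1140 counts, and at 0 or 1 count in each of the other 7 deposited livers. Its call of a higher level in liver came from that 1 library. Without fetus 3 the log2 fold change over heart was -0.75 (adjusted p = 0.663), and with the fetus as a block the adjusted p was 0.357. The adjacent CYP1A2 had 0 counts in all organs, and CYP1B1, which also oxidises oestrogens, was lower in liver than in both other organs. It had 2 counts over the livers, 0 to 2.48 CPM in heart and 0.453 to 1.25 CPM in gonads.

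CYP2B6, of a subfamily that clears many drugs, was at 44.2 CPM in the liver of fetus 3, 19.7 in fetus 5 and 2.24 in the pair of fetuses 1 and 2, with 0 or 1 count in fetuses 4, 8, 9 and 10. In heart it was at 0 to 0.964 CPM (median 0.111). The contrast with heart had an adjusted p = 0.00102, and 0.0946 with the fetus as a block. CYP26B1 was at 24.7 CPM in the pair of fetuses 1 and 2, 9.12 in fetus 3 and 4.92 in fetus 5, and again had 0 or 1 count in fetuses 4, 8, 9 and 10.

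Absence from some livers with ample counts in others was common in the table. With at most 2 counts in 1 library or more and at least 100 in another, there were 1536 genes in liver among the 35092 rows. The numbers were 240 in heart, 184 in gonads and 231 in blood. The 3 members named above, of 52, were the only P450 genes among them in liver, and there were 0 in the other tissues. That share in liver was near the share of all rows, so the pattern was not particular to P450 genes. The hepatocyte markers summed to 63830 CPM in the pair of fetuses 1 and 2, 62750 in fetus 3 and 61010 in fetus 5, the livers with CYP2B6 and CYP26B1. In the livers without them the sums were 40420 CPM in fetus 4, 69660 in fetus 8, 48270 in fetus 9 and 40300 in fetus 10, so 3 of these 4 lay below all livers with both genes. The part of hepatocytes in the result was not tested. The livers with both genes were all ET_D7, and those without them were fetus 4 of ET_D7 and fetuses 8, 9 and 10 of ET_D9. CYP1A1, CYP2B6 and CYP26B1 reached 10 counts in fewer than 4 liver replicates. They were therefore left out of the main liver tests for weight and transfer group given below.

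**Figure D4:**
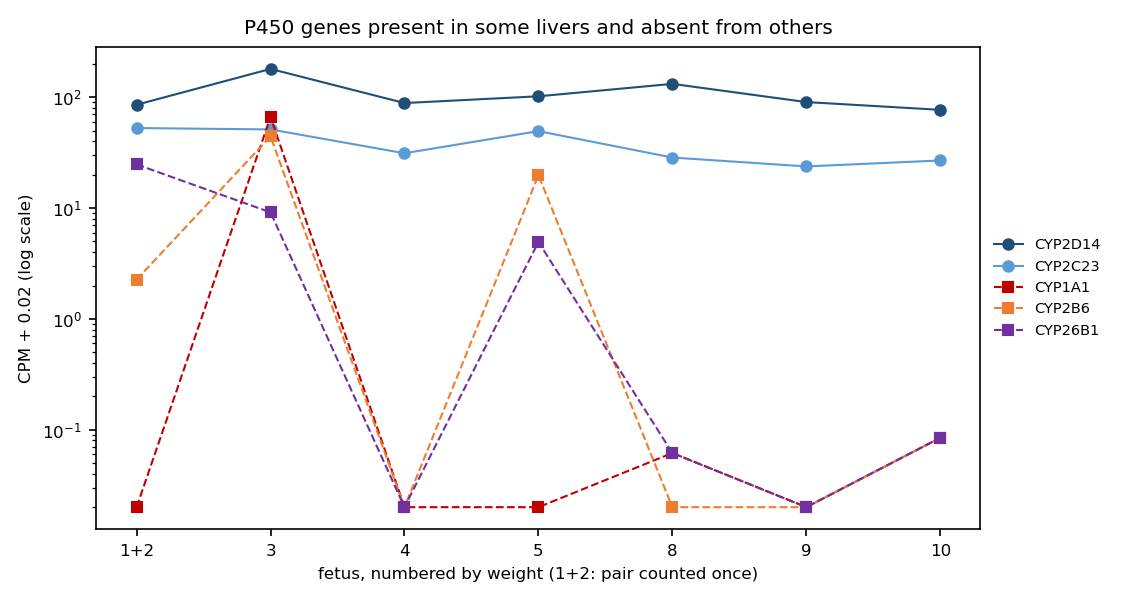
CPM + 0.02 on a log axis in the 7 liver replicates, ordered by fetal weight, for CYP1A1, CYP2B6 and CYP26B1 (dashed) and, for comparison, CYP2D14 and CYP2C23 (solid). CYP1A1 stands out in fetus 3 alone, CYP2B6 and CYP26B1 are present in the pair 1 and 2 and in fetuses 3 and 5, and the other livers are at or near 0. CYP2D14 stays between 76.9 and 180 CPM.

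How P450 genes varied with fetal weight was asked within each tissue, by edgeR with a smooth curve along weight. In liver 0 of 29 members tested passed an adjusted p of 0.05, against 1.91% of all genes, with 6 at an unadjusted p under 0.05 (10.8%) and 3 called by DESeq2. The smallest p belonged to CYP4A11 (adjusted p = 0.194), CYP4A59 (0.232) and CYP39A1 (0.239). In heart the number was 0 of 20 (0% of all genes), with 1 at an unadjusted p under 0.05 (8.1%) and 1 by DESeq2, and the smallest p belonged to CYP2C23 (adjusted p = 0.599), CYP51A1 (0.616) and CYP20A1 (0.625). In blood it was 0 of 14 (0.123%), with 0 at an unadjusted p under 0.05 (9.74%) and 0 by DESeq2, led by CYP2S1 (adjusted p = 0.525), CYP2W1 (0.593) and CYP51A1 (0.633).

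In gonads 1 of 26 members passed, against 5.75% of all genes, and 5 were at an unadjusted p under 0.05 (24%). CYP7B1 was at 1.68 CPM in fetus 1, 11.6 in fetus 3, 12.2 in fetus 4, 21.3 in fetus 5, 21.7 in the pair of fetuses 6 and 8, 6.88 in fetus 7, 11 in fetus 9 and 13.4 in fetus 10. For the curve, the pair was placed at the mean weight of its fetuses. The level was lowest in the lightest fetus and highest in fetus 5 and the pair, with fetus 7 below its neighbours (adjusted p = 0.0162). It stayed past the threshold in 10 of 17 recomputations, not with a linear term, with all libraries as deposited, or without fetus 1, 6, 9 or 10. Over these the adjusted p ran from 2.12e-17 to 0.983.

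Between the transfer groups, 2 P450 genes were called lower in the livers of ET_D9 than of ET_D7 fetuses, and both calls depended on few libraries. In liver 2 of 29 members passed, against 2.18% of all genes, and 8 were at an unadjusted p under 0.05 (13.3%). CYP4A59 was at 11.7, 12.8, 7.17 and 9.45 CPM in the ET_D7 livers (the pair of fetuses 1 and 2, then 3, 4 and 5) and at 4.33, 3.51 and 4.13 CPM in the ET_D9 livers (8, 9 and 10). The groups did not overlap, with means of 10.3 ± 2.50 (SD, n = 4) and 3.99 ± 0.427 (SD, n = 3). The log2 fold change was -1.51 ± 0.305 (SE) with an adjusted p = 0.0329.

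CYP2C23 was at 52.7, 51.2, 31.2 and 49.4 CPM in the same ET_D7 livers and at 28.5, 23.7 and 26.8 CPM in the ET_D9 livers, again without overlap. The log2 fold change was -0.94 ± 0.208 (SE) with an adjusted p = 0.0499. Just outside the threshold, CYP39A1 was at 4.0, 5.69, 9.12 and 2.86 CPM in ET_D7 and 1.58, 1.09 and 1.03 CPM in ET_D9 (adjusted p = 0.0526). CYP2U1 and CYP27B1 were also lower in ET_D9 without overlap and did not pass by edgeR (adjusted p = 0.142 and 0.31). Other members went the opposite way. CYP3A24, CYP2S1 and CYP27A1 were higher in ET_D9 without overlap, and did not pass either (adjusted p = 0.382, 0.412 and 0.461). Over 14 recomputations CYP4A59 passed in 6, with adjusted p from 0.0002 to 0.25, and CYP2C23 in 4, from 0.000788 to 0.316.

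The number of members passed also depended on few libraries. It was 0 without fetus 3, 4, 5, 8, 9 or 10, and 0 without the weighted-sum liver of fetus 9. It was 4 with all libraries as deposited, where fetuses 1 and 2 enter separately. Erythroid markers, which share the fetal liver, summed to 4252, 4014, 4995 and 4746 CPM in ET_D7 and 3951, 4292 and 6229 CPM in ET_D9, and hepatocyte markers to 40420 to 63830 and 40300 to 69660 CPM, so both ranges overlapped.

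**Figure D5:**
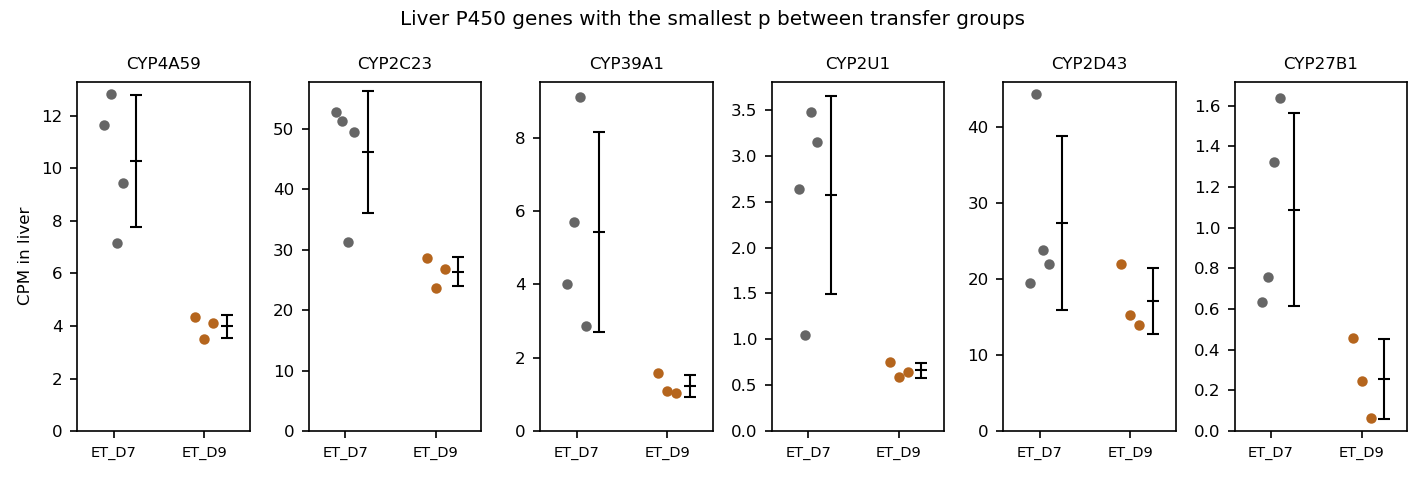
CPM in liver of the 6 P450 genes with the smallest p between transfer groups, on linear axes from 0, with 4 ET_D7 replicates (grey) and 3 ET_D9 replicates (brown), and the mean with SD beside them. CYP4A59 and CYP2C23 passed the adjusted threshold, and the other 4 did not. All 6 means are lower in ET_D9. Members with a higher mean in ET_D9, such as CYP2S1 and CYP27A1, are not shown.

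In heart 0 of 20 members passed (0.0431% of all genes), with 4 at an unadjusted p under 0.05 (24.5%) and 3 called by DESeq2. CYP20A1 was nearest, at 10.8 to 18.8 CPM in ET_D7 and 22.2 to 34.1 CPM in ET_D9 without overlap (log2 fold change 0.83 ± 0.178, adjusted p = 0.0635), followed by CYP26B1 (log2 fold change -1.12 ± 0.336, adjusted p = 0.0889) and CYP2D14 (-0.60 ± 0.193, adjusted p = 0.102). In that comparison 3 members passed without fetus 3. In gonads 0 of 26 passed (0.00566%), with 6 at an unadjusted p under 0.05 (12.8%) and 0 by DESeq2, led by CYP2C23 (adjusted p = 0.226), CYP2S1 (0.248) and CYP4B1 (0.299). In blood 0 of 14 passed (0%), with 1 at an unadjusted p under 0.05 (7.69%) and 0 by DESeq2, led by CYP2W1 (adjusted p = 0.601), CYP4V2 (0.714) and CYP2U1 (0.749).

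Genes listed as serving the P450 enzymes were also mostly higher in liver, against 22.5% of all genes. Of 7 genes listed as electron donors, 4 were higher in liver and 1, CYB5B, in gonads. The 4 include FDX2, and whether it hands electrons to P450 enzymes was not tested. POR, the oxidoreductase that feeds microsomal P450s, was at 91.1 ± 20.4 CPM (SD) in liver, 28 ± 4.90 in heart and 25.6 ± 6.22 in gonads. CYB5A was at 1020 ± 169 CPM in liver and 143 ± 43.8 in heart. Of the mitochondrial ferredoxins, FDX1 was at 60.2 ± 13.6 CPM in liver and 27.1 ± 2.75 in heart, and FDX2 at 70.7 ± 15.6 and 29.8 ± 5.76.

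Of 8 genes of haem synthesis, 7 were higher in liver and ALAS1, the housekeeping first enzyme, was higher in heart at 37.0 ± 3.57 CPM against 29.3 ± 7.51 in liver. ALAD was at 1130 ± 172 CPM in liver and 78.3 ± 16.0 in heart. Erythroid cells also make haem, and 8 of 8 erythroid markers were higher in liver, where they summed to 3950 to 6230 CPM against at most 298 CPM in heart and 120 CPM in gonads. Their part in the haem result was not tested.

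Among 15 receptors and factors known to control P450 genes, 10 were higher in liver and 2, ARNT and NFE2L2, in gonads. HNF4A, a hepatocyte factor, was at 78.9 ± 16.8 CPM in liver and 0.136 ± 0.144 in heart, and RXRA, the partner of many nuclear receptors, at 262 ± 50.6 and 73.6 ± 20.7. The xenobiotic receptors NR1I2 and NR1I3 were at 5.03 ± 1.34 and 2.54 ± 1.06 CPM in liver. AHR, which controls CYP1A1, was at 11.1 ± 8.06 CPM in liver and higher in no organ. Of 17 phase II and related enzymes, 10 were higher in liver, with EPHX2, a soluble epoxide hydrolase, at 270 ± 42.3 CPM there against 8.23 ± 1.17 in heart, and 1, FMO5, was higher in gonads.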

How the data were processed

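Fetal heart, gonads and liver and maternal blood were profiled by RNA-seq. The authors trimmed reads (Trimmomatic) after quality control (FastQC 0.11.9), aligned them with STAR 2.7.0b to ARS-UCD1.3 and deposited raw gene counts from featureCounts (Subread 2.0.3). Strand, multiple-mapping and pair options are not given in the sources used here. Symbols and neighbours came from RefSeq, assembly ARS-UCD2.0, which gave no exon lengths, so levels are not compared between genes.

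Counts were scaled by TMM, within organs and within blood, to CPM. Organs were compared in edgeR 4.0.16 (R 4.3.3) with the quasi-likelihood test over all genes with at least 1 count, and called at a Benjamini-Hochberg adjusted p under 0.05 over all genes. A member was higher in an organ when it passed against both others. Within tissues, genes with at least 10 counts in 4 libraries were tested against a natural spline of weight with 3 degrees of freedom and between transfer groups. The edgeR fits between organs (scored for liver over heart), along the spline of weight and between transfer groups were tested on simulated data. The other procedures were not. Of the planned 26 organ libraries, 24 replicates were fitted after averaging pairs that, for the median gene, differed by less than counting error. Weighted sums were sought by non-negative least squares on genes with a mean of at least 50 counts, and pairs were compared on genes with at least 200 counts in the pair. Libraries of the same fetus come from one animal, so the number pairs them. Their deviations from organ means correlated by -0.073 to 0.206 (median 0.025) over 23 pairs of organs.

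Levels are given per replicate for members on in a tissue, or called higher in an organ with a mean of at least 1 CPM there. Other members are given by ranges. For weight and transfer group the members past the threshold, or else the 3 with the smallest p, are named. Lists of other genes are shown by at most 4 members, the highest by level, apart from NR1I2, NR1I3, AHR, SIX2, DDX4 and FDX1, which were chosen after their values were seen. The values of a gene of the phase II list are not reported here. Members and lists were chosen with earlier results of these data known. Alternatives were DESeq2 1.42.0 (test and size factors), TMM without mitochondrial genes, other filters and thresholds, a fetus block and leaving out each fetus. After the data were seen, fits with libraries as deposited and without weighted-sum libraries were added. Intervals and floors (3 counts over a group) cover counting error only.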

Additional observations from a re-analysis of the deposited data

Results flagged for a closer look

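In groups of 7 to 10 replicates, the highest or lowest value was compared with its nearest neighbour by Dixon's criterion, which chance alone meets in about 1 of 20 groups. Of 70 combinations of member and tissue, 6 had such a library, 4 of them in liver and 2 in gonads. CYP1A1 was at 66.2 CPM in the liver of fetus 3, and the next liver was at 0.0645 CPM. CYP2D43 was at 44.4 CPM in the same liver, with 23.7 CPM as the next value. CYP26B1 was at 24.7 CPM in the averaged livers of fetuses 1 and 2 (next 9.12 CPM), and CYP2R1 was at 10.5 CPM in that pair (next 5.52 CPM). In the libraries labelled gonads, fetus 7 had CYP27A1 at 39.6 CPM (next 30.4 CPM) and CYP2C88 at 2.69 CPM (next 1.83 CPM).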

How the results depend on the processing

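Over the livers 3 counts correspond to 0.0210 CPM, so lower levels could not be detected, and near copies may share reads. Of 502 recomputations over 30 results on single members, 447 kept direction and threshold, 53 kept direction only and 2 reversed. Both reversals were CYP1A1 in liver over heart, at -0.75 without fetus 3 (up to 8.31 without fetus 8) and -1.12 by DESeq2, which gave no adjusted p. Among members higher in gonads, 5 exceeded a log2 fold change of 1. With 5 CPM as the limit, 10 members were on in liver, 5 in heart, 8 in gonads and 5 in blood. For weight, DESeq2 called 3 in liver and 1 in heart. In gonads the count was 0 with a linear term, with that term and transfer group, and as deposited, 2 without the weighted-sum libraries, and 0 to 2 without 1 fetus (0 without 1, 6, 9 or 10, 2 without 7). Between transfer groups in liver it was 1 without mitochondrial genes in the scaling, 4 by DESeq2, 4 as deposited, 0 with 1 count as the filter, 0 without the weighted-sum liver, and 0 to 2 without 1 fetus. In heart it was 3 by DESeq2 and 0 to 3 without 1 fetus. Causes were not tested. Leaving out 1 fetus left 15 to 17 members higher in liver and 8 to 10 in gonads. With the fetus as a replicate block on the 26 libraries as deposited, 14 members were higher in liver and 7 in gonads, and 14 pairwise calls of members were lost and 3 gained. Without the weighted-sum libraries 8 members were higher in gonads, with 10 pairwise calls lost and 1 gained. DESeq2 size factors moved the median of all genes by 0.17 (liver over heart) and 0.16 (liver over gonads), and turned the direction of no member's call, with 18 members higher in liver and 8 in gonads.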

Other observations

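The table also held P450 pseudogenes. CYP21A1P had 58 to 141 counts in every heart (median 80), 60 to 115 in every gonad library (median 90), 10 to 131 in every liver (median 45) and 0 to 10 in blood (median 3), whereas its coding copy CYP21A2 had 0 counts in liver and 20 over all hearts. CYP2J31P did not exceed 40 counts in any library. CYP4A60P was at 0 in all hearts and had 16 counts in a single liver. Copies of this likeness can share reads, which was not tested.

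P450 enzymes of prostanoid synthesis that carry other symbols were split between organs. TBXAS1, thromboxane synthase, was higher in liver (12.9 ± 2.52 CPM, SD) than in heart (0.780 ± 0.313) and gonads (0.804 ± 0.195), and was at 127 ± 28.8 CPM in blood. Platelet markers, of which 4 of 4 were higher in liver, summed to 290 to 445 CPM there and at most 42.1 CPM in heart. Macrophage markers (6 of 6 higher in liver) summed to 131 to 207 CPM there and at most 25.5 CPM in heart. For neutrophil markers (5 of 5) the values were 84 to 160 CPM and at most 3.96 CPM. PTGIS, prostacyclin synthase, was higher in heart (18.8 ± 4.80 CPM) than in gonads (10.7 ± 1.3) and liver (2.11 ± 1.33). Endothelial markers summed to 196 to 345 CPM in heart, 116 to 181 in gonads and 120 to 216 in liver. The part of these cell types in the levels of TBXAS1 and PTGIS was not tested.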
